A study of Mus musculus with 8 samples.

Results

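The genes described here carry out and restrain programmed cell death: the Bcl2 family, the caspases, the inhibitor of apoptosis proteins, and the receptors and ligands of the tumour necrosis factor (TNF) superfamily with their adaptors. They were taken by name from the array, as every non-control probe named Casp, Birc, Bcl2, Tnfrsf or Tnfsf with a number, or Mcl1, Bax, Bak1, Bok, Bid, Bad, Bik, Bmf, Hrk, Bbc3, Pmaip1, Fas, Fasl, Fadd, Cflar, Xiap, Apaf1, Eda2r or Diablo, with Birc5 left out. The rule used no measured value. It took 122 of 41174 probes, which belonged to 78 genes, and 56 of these genes were bright enough to be tested, among 17190 tested genes in all. The other 22 were not. One name misleads: Tnfsf5ip1 in the files is Psmg2, a proteasome assembly chaperone and not a TNF ligand, and it was counted apart by role.

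R1 is an established mouse embryonic stem cell line. All cells grew without feeder cells on gelatin in medium with 15% serum replacer, 4 cultures with leukaemia inhibitory factor (LIF), a cytokine that maintains the undifferentiated state, and 4 without LIF in 0.2 mM sodium butyrate, a histone deacetylase inhibitor, for 15 passages. Butyrate and the loss of LIF therefore changed together, and the passage number of the LIF cultures was not stated separately. The labels call the 4 cultures of each group independent, and the tests rest on how far these 8 samples spread. RNA of the same replicate number was hybridised to the same 2-colour Agilent array, the butyrate sample in Cy5 and the LIF sample in Cy3 on all 4 arrays, so that an effect of the dye and an effect of the treatment cannot be told apart. In bulk RNA, a change in RNA per cell and a change in the share of cells that hold it cannot be told apart either.

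Apoptosis has 2 main routes. In the extrinsic route a ligand such as Fasl gathers its death receptor, the adaptor Fadd binds the receptor tail and draws in Casp8, and Cflar competes with Casp8 and holds it back. In the intrinsic route BH3-only proteins such as Bcl2l11 (Bim), Bbc3 (Puma) and Pmaip1 (Noxa) block Bcl2, Bcl2l1 and Mcl1 or activate Bax and Bak1, which open the outer mitochondrial membrane. Cytochrome c then assembles Apaf1 and Casp9 into the apoptosome, and executioner caspases cut the cell's proteins, while Xiap inhibits several caspases until Diablo displaces it. Mouse embryonic stem cells are known to stand close to this threshold and to die readily after DNA damage.

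Signal and marker values bear on what follows. The median spot signal was 110 to 111 in the butyrate channel and 62.8 to 66.0 in the LIF channel, and 62.7% to 63.9% of butyrate spots and 57.9% to 61.2% of LIF spots were well above background. Over all tested genes 41.7% were higher and 33.3% lower in the test described below. Of 10 pluripotent cell markers 8 were lower in butyrate and Nanog was higher. Their summed signal was 109750 to 120160 in butyrate against 158680 to 168600 in LIF. Such sums give the brightest genes most weight. Here the brightest, Dppa5a, was saturated in both channels on all 4 arrays, with mean log2 signals of 15.69 in butyrate and 16.30 in LIF. Of 10 fibroblast markers 9 were tested, 8 of them higher and Thy1 lower, with sums of 13245 to 13766 in butyrate and 4115 to 4862 in LIF. Col1a1 rose most among them, from a mean log2 signal of 8.58 in LIF to 12.72 in butyrate. Dcn, counted as higher, was well above background on no LIF array and entered the test through butyrate alone. Of 15 lymphocyte and macrophage markers 8 were tested, with sums of 1286 to 1324 in butyrate and 1153 to 1218 in LIF. Csf1r, Lyz2 and Cd52 were higher and Fcgr3 was lower. Lyz2 was well above background on no LIF array, so it entered the test through butyrate alone. Csf1r rose most, from a mean log2 signal of 6.69 in LIF to 7.68 in butyrate. The leucocyte marker Ptprc and the lineage markers Cd8a, Cd79a, Ms4a1, Itgam, Adgre1 and Tyrobp were too dim to be tested. The part that a shift in cell make-up had in the results below was not tested.

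Of the 56 tested death genes, 47 passed the threshold, an adjusted p under 0.05 in limma's test of the 4 log2 ratios against 0: 27 were higher in butyrate and 20 lower. The 27 include Casp12 and Tnfrsf11b, which were well above background on no LIF array. These entered the test through butyrate alone, and neither passed after centring without loess. Over all tested genes the test called 75% (41.7% higher and 33.3% lower), so the share of 83.9% among the death genes stood near a background at which most genes were called. The sizes were mostly small. The median log2 ratio was 0.083 for the 56 genes and 0.031 for all genes, and the median of its absolute value was 0.30 against 0.25. At least 2-fold higher were Fas, Casp8, Tnfrsf12a and Tnfrsf19, which is 4 of 56 beside 4.97% of all genes. No member was at least 2-fold lower, beside 1.97% of all genes, and in either direction 6.93% of all genes changed that far. All 47 that passed had one sign on the 4 arrays, and for 45 of the 56 the 4 butyrate levels did not overlap the 4 LIF levels, as was the case for 68% of all genes.

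**Figure D1:**
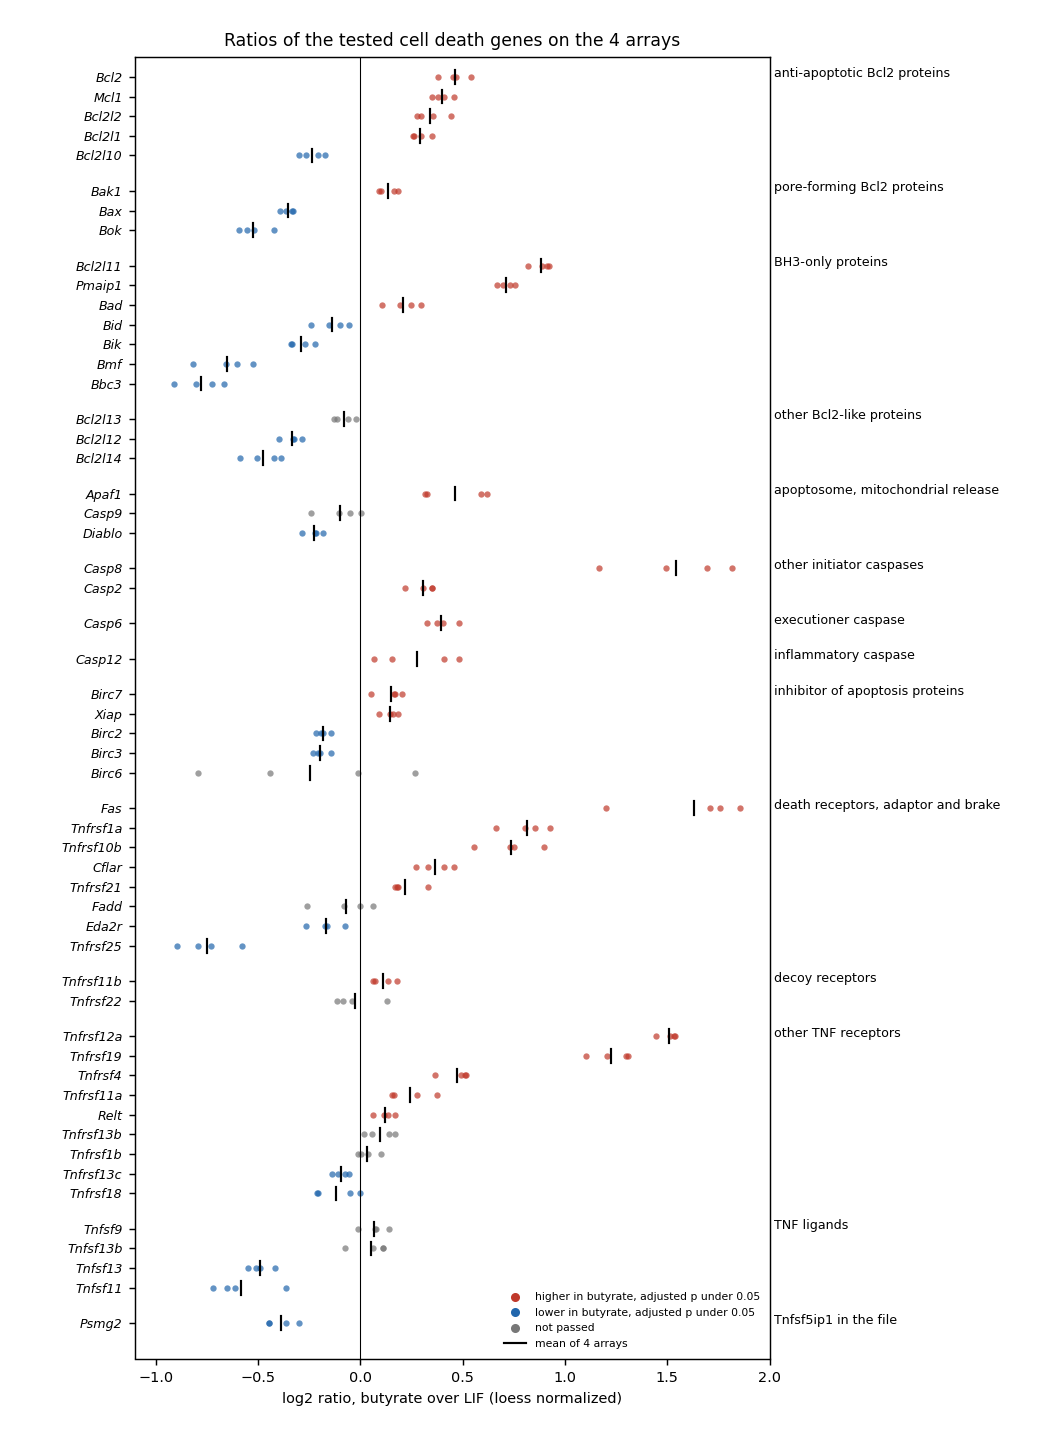
Log2 ratio of butyrate over LIF (horizontal axis) of 54 tested genes, grouped by role; each point is 1 of 4 arrays and the bar is their mean. Red genes were higher and blue genes lower at an adjusted p under 0.05 and grey genes did not pass; the means run from −0.78 for Bbc3 to 1.63 for Fas.

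**Figure D2:**
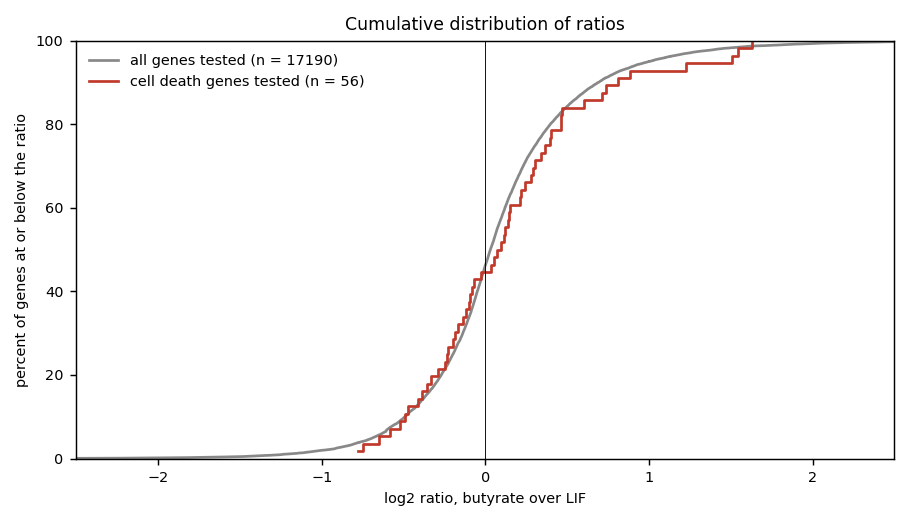
Percent of genes (vertical axis) at or below each log2 ratio of butyrate over LIF (horizontal axis), for the 56 tested cell death genes in red and all 17190 tested genes in grey. The curves lie close together through the middle, with medians of 0.083 and 0.031, and the red curve ends at −0.78 and 1.63 while that of all genes runs on beyond the drawn range.

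The death receptors held the largest change. Levels below are normalized log2 signals of 1 probe, which can be compared between samples but not between genes. Fas, the receptor for Fasl, stood at 8.77, 8.70, 8.79 and 8.89 in butyrate samples 1 to 4 and at 7.06, 7.49, 7.03 and 7.04 in LIF samples 1 to 4. Every butyrate sample was above every LIF sample, and LIF sample 2 was the highest of its group. The log2 ratio was 1.63 ± 0.29 (SD, n = 4), a 3.10-fold rise (limma adjusted p = 2.04e-06), and it was 1.77 without replicate 2. Fas lies on chromosome 19, whose genes had a median log2 ratio of 0.18. A second Fas probe, directed at another transcript, was well above background on 2 butyrate arrays and no LIF array and was not tested.

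Tnfrsf1a, the main TNF receptor with a death domain, had levels of 9.32, 9.27, 9.23 and 9.32 in butyrate and 8.46, 8.61, 8.42 and 8.39 in LIF. The 2 groups were well separated, and again LIF sample 2 was the highest LIF sample. The ratio was 0.81 ± 0.11, a 1.76-fold rise (limma adjusted p = 1.88e-06). Tnfrsf10b, the mouse receptor for the ligand TRAIL, stood at 8.91, 8.68, 8.80 and 8.78 in butyrate and 8.01, 8.13, 8.05 and 8.05 in LIF, a ratio of 0.73 ± 0.14 that its second probe gave as 0.75 and a dimmer one as 0.23. Tnfrsf21 (DR6), a death receptor of neurons and lymphocytes, rose by less, with a ratio of 0.22 ± 0.08, and did not pass in the scanner software's ratios or the authors' value table, at 0.12 in both.

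Tnfrsf25 (DR3), a death-domain receptor best known on T cells, went the other way. Its butyrate levels were 7.99, 7.98, 7.95 and 8.06 and its LIF levels 8.72, 8.55, 8.85 and 8.85. All 4 butyrate samples were below all 4 LIF samples, with a ratio of −0.75 ± 0.13, 1.68-fold lower (limma adjusted p = 5.30e-06), but when arrays were centred on their median without loess the value was −0.25 and did not pass; a dimmer second probe read −0.20. Eda2r, a receptor for an ectodysplasin isoform, was slightly lower at −0.17 ± 0.08, and its 3 probes gave −0.17, −0.13 and −0.16; under that centring it turned to 0.40.

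Downstream of the receptors the changes were uneven. Fadd, the adaptor, had levels of 8.35, 8.54, 8.57 and 8.47 in butyrate and 8.61, 8.62, 8.51 and 8.47 in LIF. The groups overlapped and the ratio of −0.07 ± 0.14 did not pass (limma adjusted p = 0.261). Fadd passed as lower in the scanner software's ratios (−0.24) but as higher after centring without loess (0.46), so its direction depended on the scaling. Casp8, the initiator caspase that Fadd recruits, stood at 8.95, 8.90, 9.00 and 9.07 in butyrate and 7.46, 7.73, 7.30 and 7.25 in LIF. No sample of one group reached the other, and LIF sample 2 was once more the highest in LIF. Its ratio was 1.54 ± 0.28, a 2.92-fold rise (limma adjusted p = 2.42e-06), and 1.67 without replicate 2. Cflar, the brake on Casp8, had levels of 9.47, 9.49, 9.38 and 9.45 in butyrate and 9.06, 9.04, 9.05 and 9.18 in LIF, a ratio of 0.37 ± 0.08 by its brightest probe. The mean of its tested probes was 0.032 and did not pass. Of its other probes 1 was higher at 0.12 and 2 were lower at −0.14 and −0.22, so its direction depended on the probe.

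**Figure D3:**
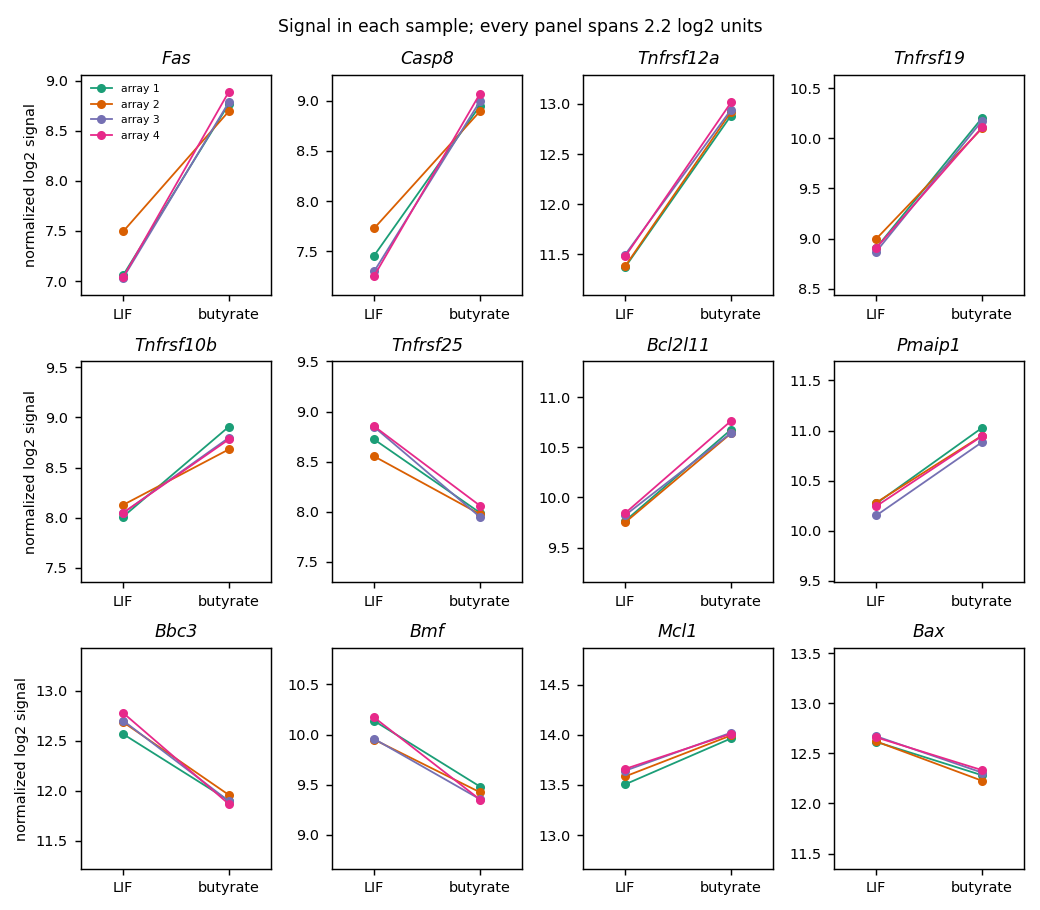
Normalized log2 signal (vertical axis) of 12 genes in each LIF and butyrate sample, with a line for each of the 4 arrays; every panel spans 2.2 log2 units. For Fas and Casp8 the array 2 line starts above the others, at 7.49 and 7.73 in LIF, while the 4 lines of Tnfrsf12a are nearly parallel.

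Among TNF receptors without a death domain 2 rose at least 2-fold. Tnfrsf12a (Fn14), the small receptor for the ligand TWEAK, had levels of 12.88, 12.92, 12.94 and 13.02 in butyrate and 11.37, 11.38, 11.50 and 11.48 in LIF. The samples of each group lay within a narrow band, and the ratio was 1.51 ± 0.04, a 2.84-fold rise (limma adjusted p = 2.82e-08). Its ratios on the 4 arrays ran only from 1.44 to 1.54. Tnfrsf19 (TROY), an orphan receptor found in embryonic and stem cell compartments, stood at 10.20, 10.10, 10.18 and 10.11 in butyrate and 8.91, 9.00, 8.87 and 8.91 in LIF, with a ratio of 1.23 ± 0.10, a 2.34-fold rise (limma adjusted p = 1.69e-07); a dimmer second probe gave 0.22. Tnfrsf4 (OX40), a costimulatory receptor of T cells, had levels of 8.08, 8.15, 8.22 and 8.22 in butyrate against 7.59, 7.79, 7.71 and 7.71 in LIF, a ratio of 0.47 ± 0.07.

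The remaining TNF receptors moved little. With Tnfrsf12a, Tnfrsf19 and Tnfrsf4 included, this group held 14 genes, of which 9 were tested. Of these 9, 5 were higher and 2 lower, beside 41.7% and 33.3% of all genes. The tested genes other than Tnfrsf12a, Tnfrsf19 and Tnfrsf4 lay between −0.12 and 0.24 by their brightest probes. Tnfrsf11a (RANK), the receptor of the osteoclast factor Tnfsf11, was higher at 0.24 ± 0.10, and Relt at 0.12 ± 0.05, a call that was lost in the scanner software's ratios (0.065) and the authors' value table (0.053). Tnfrsf18 (GITR) at −0.12 ± 0.11 and Tnfrsf13c (the BAFF receptor) at −0.09 ± 0.04 were the 2 that were lower, both near the threshold, with limma adjusted p-values of 0.0491 and 0.0345. Tnfrsf13b at 0.10 ± 0.07 did not pass. Tnfrsf1b did not pass at 0.03 ± 0.05 by its brighter probe, while its other probe was lower at −0.21 and passed. Of 4 decoy receptors, which bind a ligand without passing on a signal, Tnfrsf11b (osteoprotegerin) and Tnfrsf22 were tested. Tnfrsf11b read 6.38, 6.43, 6.38 and 6.46 in butyrate and 6.20, 6.37, 6.31 and 6.33 in LIF. It was well above background on no LIF array. By the channel means under the loess scaling its rise was 1.08-fold or more. Centring without loess turned its log2 ratio to −0.047, which did not pass. Tnfrsf22, at −0.03 ± 0.11, did not pass.

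The ligands were mostly below detection. Of 13 genes 4 were tested, and Fasl was well above background on no array of either group, as were Tnfsf10 (TRAIL), Tnfsf12 (TWEAK) and Cd70. These include the ligands of the 3 receptors Fas, Tnfrsf10b and Tnfrsf12a, which were higher. Tnfsf11 (RANKL), the osteoclast factor, stood at 6.45, 6.61, 6.59 and 6.25 in butyrate and 7.10, 6.98, 7.20 and 6.97 in LIF. Every butyrate sample was lower, with a ratio of −0.59 ± 0.16 (limma adjusted p = 3.83e-05) and −0.51 by its second probe; it was also lower under every alternative tried, from −0.48 to −2.03. Tnfsf13 (APRIL), a B cell survival factor, had 9.27, 9.24, 9.29 and 9.28 in butyrate and 9.82, 9.65, 9.80 and 9.77 in LIF. Its ratio was −0.49 ± 0.06, which centring without loess turned to 0.091, a value that did not pass. Tnfsf9 (0.07 ± 0.06) and Tnfsf13b (0.05 ± 0.09), the latter well above background on no LIF array, did not pass; both passed as higher with no background correction, in the scanner software's ratios and in the authors' value table, where they stood at 0.33 and 1.26.

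Initiator caspases other than Casp9 were higher. Casp2, an initiator linked to the PIDDosome, stood at 11.60, 11.63, 11.59 and 11.59 in butyrate and 11.25, 11.28, 11.28 and 11.38 in LIF, a ratio of 0.31 ± 0.06 beside 1.54 for Casp8. Casp9, the initiator of the apoptosome, had levels of 9.65, 9.74, 9.61 and 9.61 in butyrate and 9.70, 9.74, 9.72 and 9.85 in LIF, which overlapped; its ratio of −0.10 ± 0.11 did not pass (limma adjusted p = 0.0872). It passed as lower with no background correction (−0.12), in the scanner software's ratios (−0.24), in the authors' value table (−0.25) and without replicate 2 (−0.13), and as higher after centring without loess (0.49). Apaf1, the scaffold that activates Casp9, was at 9.68, 9.68, 9.62 and 9.81 in butyrate and 9.06, 9.09, 9.29 and 9.49 in LIF, a ratio of 0.46 ± 0.16. Its arrays stood at 0.62, 0.59, 0.33 and 0.32, and its other probes read 0.22 and −0.10. Diablo, which relieves caspase inhibition, was lower by its brightest probe, at 11.31, 11.29, 11.27 and 11.29 in butyrate and 11.60, 11.51, 11.49 and 11.47 in LIF with a ratio of −0.23 ± 0.04, but higher by its second probe at 0.30, and the mean of both probes was 0.036.

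Casp6, an executioner caspase that cuts nuclear lamins, rose. It read 10.75, 10.80, 10.84 and 10.94 in butyrate and 10.42, 10.43, 10.35 and 10.54 in LIF, with no overlap between the groups, a ratio of 0.40 ± 0.07 (limma adjusted p = 3.19e-05) and 1.32-fold. Of the inflammatory and skin caspases, Casp1, Casp4 and Casp14 were not tested. Casp12 read 6.60, 6.60, 6.60 and 6.72 in butyrate and 6.44, 6.54, 6.19 and 6.24 in LIF. In LIF it was well above background on no array. By the channel means under the loess scaling its rise was 1.21-fold or more. After centring without loess its log2 ratio was 0.22 and did not pass.

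The anti-apoptotic Bcl2 proteins rose by small amounts, 4 of 5 tested being higher beside 41.7% of all genes. These 4 were higher under every scaling tried. Bcl2 itself stood at 7.97, 8.03, 8.05 and 8.04 in butyrate and 7.50, 7.65, 7.50 and 7.59 in LIF. The groups did not overlap, and the ratio was 0.46 ± 0.07, a 1.38-fold rise (limma adjusted p = 1.39e-05), with 0.31 and 0.14 by its other probes. Mcl1, a short-lived survival protein, had 13.96, 13.99, 14.02 and 14.01 in butyrate and 13.51, 13.59, 13.64 and 13.66 in LIF, a ratio of 0.40 ± 0.05 and 0.23 by its second probe. Bcl2l2 (Bcl-w) stood at 9.07, 9.02, 9.02 and 9.05 in butyrate and 8.63, 8.67, 8.74 and 8.76 in LIF, a ratio of 0.34 ± 0.07; its second probe did not pass at 0.049, and the mean of both was 0.20. Bcl2l1, which encodes Bcl-xL, had 9.02, 9.02, 8.91 and 9.02 in butyrate and 8.72, 8.75, 8.65 and 8.67 in LIF, a ratio of 0.29 ± 0.04 by the brightest of 3 probes; the others read −0.01 and −0.10 and did not pass, and the mean of the 3 was 0.062, which did not pass. Bcl2l10, an oocyte-enriched member, was lower at −0.24 ± 0.06. Bcl2a1b and Bcl2a1c were well above background on no array.

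The pore-forming proteins were lower for Bax and Bok. Centring without loess turned them to 0.21 and 0.048. Neither passed there, and both lay below the median of all genes under that centring, 0.41. Bax stood at 12.28, 12.23, 12.31 and 12.33 in butyrate and 12.61, 12.62, 12.67 and 12.66 in LIF. This was a small but even fall, with a ratio of −0.35 ± 0.03 (limma adjusted p = 2.85e-05) and all arrays between −0.39 and −0.33. Bok, a relative that can open the mitochondrial membrane without Bax and Bak1, read 11.81, 11.72, 11.77 and 11.84 in butyrate and 12.37, 12.32, 12.29 and 12.26 in LIF, a ratio of −0.52 ± 0.07 (limma adjusted p = 7.70e-06). Bak1 read 10.61, 10.63, 10.68 and 10.63 in butyrate and 10.51, 10.54, 10.51 and 10.45 in LIF, a ratio of 0.14 ± 0.05; its second probe was lower at −0.16, and the mean of both was −0.0099. Bak1 did not pass in the scanner software's ratios (0.046) or the authors' value table (0.042).

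The BH3-only proteins split into both directions. All 7 tested passed, 3 higher and 4 lower, in a test that 75% of all genes passed. The median absolute log2 ratio was 0.65 beside 0.25 for all genes. Bcl2l11 (Bim) stood at 10.68, 10.64, 10.64 and 10.76 in butyrate and 9.77, 9.75, 9.82 and 9.84 in LIF, a ratio of 0.88 ± 0.05, 1.85-fold (limma adjusted p = 2.73e-07). That rise was seen by its brightest probe alone: the other 2 read −0.05 ± 0.12 and −0.06 ± 0.06 and did not pass, and the mean of the 3 was 0.26. Pmaip1 (Noxa), which neutralizes Mcl1, had 11.03, 10.95, 10.88 and 10.94 in butyrate and 10.27, 10.28, 10.15 and 10.24 in LIF, a ratio of 0.71 ± 0.04 with little spread between arrays (limma adjusted p = 6.83e-07). Bad, which growth factor signalling keeps phosphorylated, was higher at 0.21 ± 0.08 by its brighter probe, while its other probe read −0.06 and did not pass. It lies on chromosome 19, and its call was lost with the mean of both probes (0.076) and against the median of its chromosome (0.039).

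Bbc3 (Puma), a p53 target that binds every anti-apoptotic relative, had the largest decrease of the members under the loess scaling with the offset of 50. With an offset of 16, in the scanner software's ratios, in the authors' value table and after centring without loess, Tnfsf11 and Tnfrsf25 fell further. Bcl2l10 did so in all of these but the first, and Bmf in the scanner software's ratios and the authors' value table. With no background correction Tnfrsf25 also fell further (−0.84 beside −0.78 for Bbc3). The levels of Bbc3 were 11.90, 11.96, 11.90 and 11.87 in butyrate and 12.57, 12.69, 12.70 and 12.78 in LIF. The groups were far apart, with a ratio of −0.78 ± 0.11, 1.71-fold lower (limma adjusted p = 2.04e-06). Bmf, which binds the cytoskeleton in healthy cells, read 9.48, 9.42, 9.35 and 9.35 in butyrate and 10.14, 9.95, 9.96 and 10.17 in LIF, a ratio of −0.65 ± 0.12, and its other probes gave −0.18 and −0.21. With centring in place of loess Bbc3 was at −0.21 and Bmf at −0.06, and neither passed. Bik (−0.29 ± 0.06) and Bid (−0.14 ± 0.08), the link from Casp8 to mitochondria, were lower by less. Centring turned Bik to 0.045, which did not pass, and Bid to 0.45, which did. For Bik the 2 groups overlapped, since both samples of array 4 were the highest of their groups. Hrk was not tested.

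The other 3 relatives of Bcl2 were flat or lower. Bcl2l14 (Bcl-G) read 7.95, 8.26, 8.37 and 8.24 in butyrate and 8.53, 8.65, 8.79 and 8.74 in LIF, a ratio of −0.47 ± 0.09. Bcl2l12 read 9.51, 9.53, 9.56 and 9.65 against 9.91, 9.85, 9.84 and 9.98, a ratio of −0.33 ± 0.05. Without loess they stood at 0.041 and 0.26, and neither passed. Bcl2l13, a mitochondrial protein linked to mitophagy, did not pass at −0.08 ± 0.05. It passed as lower with no background correction (−0.094), in the scanner software's ratios (−0.15) and in the authors' value table (−0.17). After centring without loess it passed as higher (0.50). Psmg2, the misnamed chaperone, was lower at −0.39 ± 0.07, and without loess it stood at 0.17 and did not pass.

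The inhibitor of apoptosis proteins changed little. Xiap, the direct inhibitor of caspases, had 7.53, 7.59, 7.60 and 7.60 in butyrate and 7.39, 7.43, 7.51 and 7.42 in LIF, a ratio of 0.14 ± 0.04 (limma adjusted p = 0.00553); its second probe did not pass at −0.07. The call was also lost in the scanner software's ratios (0.051), the authors' value table (0.033), with the mean of both probes (0.039) and against the median of its chromosome (0.021). Xiap is on the X chromosome, whose genes had a median of 0.12. Birc2, an E3 ligase of TNF receptor complexes, read 9.59, 9.65, 9.60 and 9.74 in butyrate and 9.77, 9.79, 9.82 and 9.93 in LIF, a ratio of −0.18 ± 0.03, and the related Birc3 read 8.57, 8.67, 8.58 and 8.55 against 8.77, 8.81, 8.79 and 8.78, a ratio of −0.20 ± 0.04. Both were lower on each array, but centring without loess turned them to 0.41 and 0.35. Birc7 (Livin) was higher at 0.15 ± 0.07, with 6.76, 6.68, 6.72 and 6.67 in butyrate and 6.55, 6.63, 6.55 and 6.50 in LIF. Birc6, a very large protein of this group, had ratios of −0.01, 0.27, −0.44 and −0.79 on arrays 1 to 4. This spread was the widest of the members, the mean of −0.25 ± 0.47 did not pass (limma adjusted p = 0.169), and without replicate 2 it was −0.42 and passed (limma adjusted p = 0.00700).

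The array 2 pattern of Fas and Casp8 was shared. Among the 47 members that passed, the ratio nearest 0 was that of array 2 for 25 (53.2%), and array 2 was nearest 0 for 48.4% of all genes called. Leaving out replicate 2 gave 48 called members and each other replicate 43 or 44. The 4 that were at least 2-fold higher passed in every one of these fits.

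Different probes of a gene often disagreed in size. Of the 56 genes 24 had more than 1 tested probe and 32 had 1. Counted singly, 71 of 89 probes passed, 38 higher and 33 lower, beside 72.2% of all tested probes. The probes of Apaf1, Bak1, Cflar and Diablo passed in opposite directions, as given above. The probes of Tnfrsf21, Eda2r, Psmg2 and Tnfsf11 agreed in sign and were close in size, whereas those of Tnfrsf19 and Bcl2l11 lay about 1 log2 unit apart. The background offset pulls the ratio of a dim probe towards 0. The second Bcl2l11 probe, at −0.05, had a mean log2 signal of 8.17, beside 7.96 for the tested Fas probe. It is labelled with the same target transcript as the brightest Bcl2l11 probe, and both Bak1 probes also share a label. Why such probes differ was not tested, and which transcripts the probes of a gene in fact detect was not examined.

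**Figure D4:**
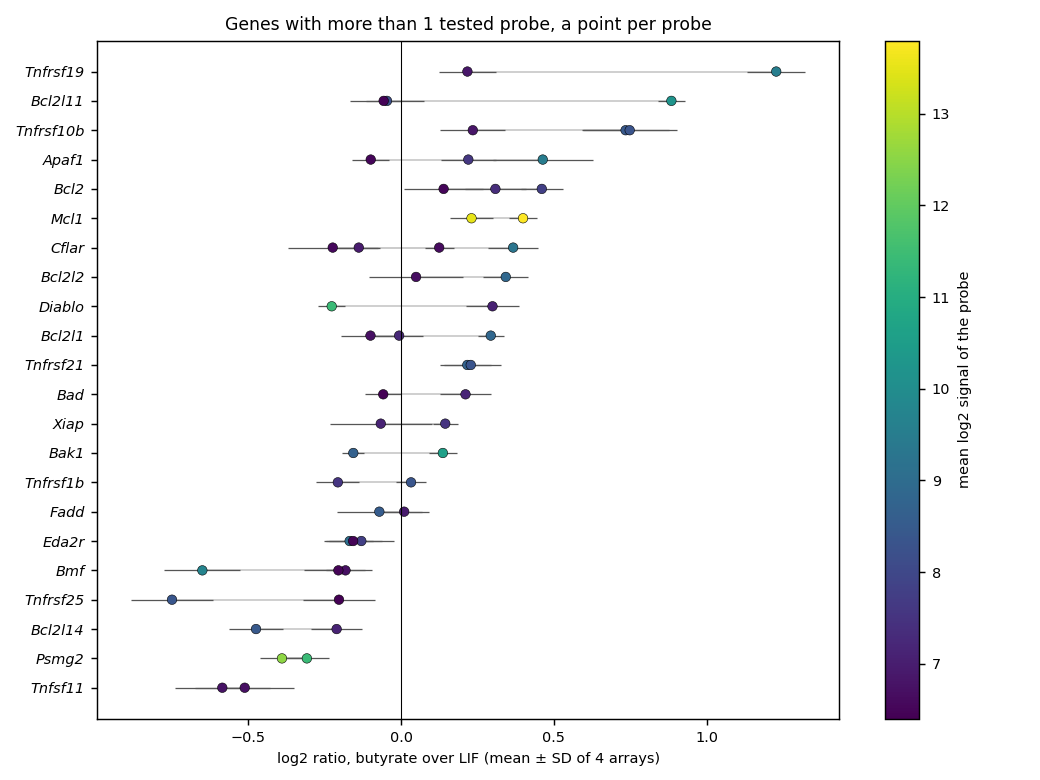
Log2 ratio of butyrate over LIF (horizontal axis; mean and SD of 4 arrays) of every tested probe of 22 genes with more than 1, with colour for the probe's mean log2 signal. Probes of Apaf1, Bak1, Cflar and Diablo lie on both sides of 0, while both probes of Tnfsf11 lie at −0.59 and −0.51.

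The split between higher and lower members depended on how the 2 channels were balanced. Loess, used here, put the median of all genes at 0.03, and centring each array on its median without loess put it at 0.41 for the tested genes. Under that centring 33 members were higher and 2 lower, 94.3% of called members higher in place of 57.4%, and over all genes 92.4% in place of 55.7%. Read against the median of all genes, 31 of the 56 members lay above it with loess and 29 with centring. Of the 5 anti-apoptotic Bcl2 proteins 4 lay above it under both, of the 3 pore-forming proteins 1 under both, and of the 7 BH3-only proteins 3 with loess and 4 with centring. The scanner software's own ratios gave 25 members higher and 24 lower, and the authors' value table, which holds no offset, 25 and 22. In that table Fas was at 2.54 and Casp8 at 2.15, and dim genes moved furthest, with Casp12 at 1.93, Tnfsf13b at 1.26, Bcl2l10 at −1.19 and Tnfsf11 at −2.03. Of the 47 called members 19 passed in the same direction under every alternative, among them Fas, Casp8, Tnfrsf12a, Tnfrsf19, Tnfrsf1a, Tnfrsf10b, Bcl2l11, Pmaip1, Bcl2, Mcl1 and Tnfsf11. Where probes were taken singly, a gene was judged here by its brightest probe. The other Bcl2l11 probes did not pass, and Apaf1, also among the 19, had probes that passed in opposite directions.

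**Figure D5:**
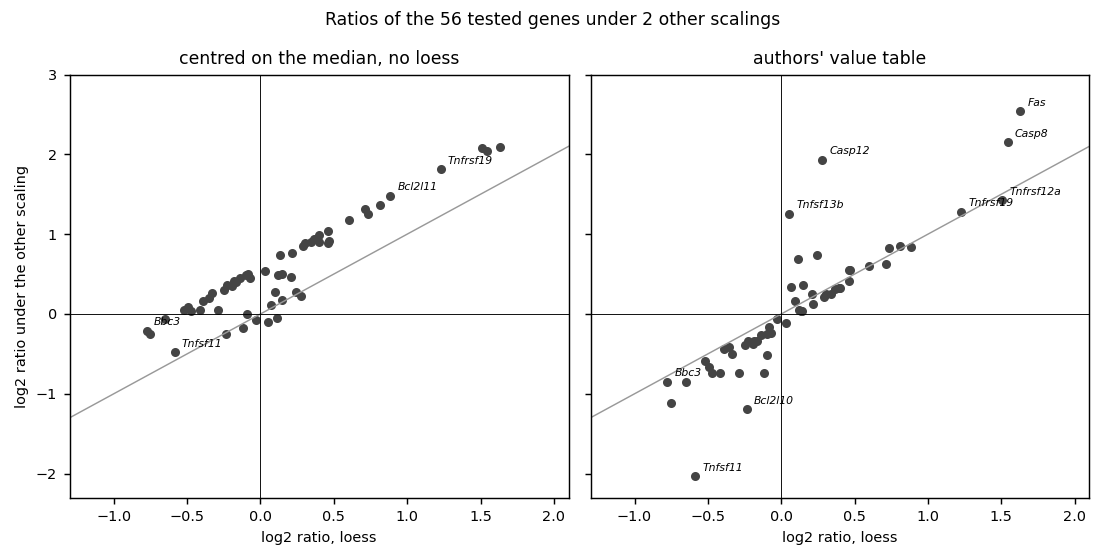
Log2 ratio of the 56 tested genes with loess (horizontal axis) against the ratio after centring on the median without loess (left) and in the authors' value table (right); the grey line marks equal values. Most genes on the left lie above the line, while on the right Casp12, Tnfsf13b, Bcl2l10 and Tnfsf11 stand furthest from it for their loess ratio.

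Other genes of the pathway were taken from a list of 62 that are not members by the rule: adaptors, kinases, NF-kB components, nucleases and regulators of mitochondria. Of these 58 were tested, 31 were higher and 18 lower, and 9 did not pass, 84.5% called beside 75% of all genes. Tnf and Lta, counted as higher, were well above background on no LIF array. Tnfaip3 (A20), which ends TNF receptor signalling to NF-kB, had the largest rise, from 7.48, 7.75, 7.48 and 7.45 in LIF to 8.98, 8.90, 8.89 and 8.96 in butyrate, a ratio of 1.39 ± 0.17. Mlkl, the effector of necroptosis, on chromosome 8 with its median of 0.29, followed at 1.26 ± 0.18, and Cidea, a lipid droplet protein with a DNA fragmentation factor domain, at 0.95 ± 0.17. Bnip3, a mitophagy receptor that hypoxia induces, fell most, from 12.11, 12.00, 12.26 and 12.32 in LIF to 9.96, 10.01, 10.11 and 10.07 in butyrate, a ratio of −2.14 ± 0.11. Pycard (ASC), the inflammasome adaptor, was lower at −2.05 ± 0.07, and Cradd, the adaptor of Casp2, at −1.09 ± 0.04. No sample of one group overlapped the other for Tnfaip3 or Bnip3.

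Promoter sequences are shown for 5 members, to set the largest rises beside falls under the loess scaling. Fas, Casp8 and Tnfrsf12a were higher, and Bok and Tnfsf11 were lower. Each is the 250 bases before the RefSeq start of the gene on GRCm38.p6, written 5′ to 3′ on the strand of the gene. Capitals mark the motif GGGCGG, known as the GC box, the motif TATAAA, known as the TATA box, and the motif of the CCAAT box, spelled as its name, each searched on both strands; no matches of different motifs overlapped.
Fas: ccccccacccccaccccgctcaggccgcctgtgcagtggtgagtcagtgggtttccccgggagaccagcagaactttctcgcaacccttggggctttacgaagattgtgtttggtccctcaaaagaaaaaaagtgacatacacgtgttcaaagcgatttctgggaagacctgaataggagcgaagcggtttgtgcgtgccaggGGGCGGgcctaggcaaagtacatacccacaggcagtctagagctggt
Casp8: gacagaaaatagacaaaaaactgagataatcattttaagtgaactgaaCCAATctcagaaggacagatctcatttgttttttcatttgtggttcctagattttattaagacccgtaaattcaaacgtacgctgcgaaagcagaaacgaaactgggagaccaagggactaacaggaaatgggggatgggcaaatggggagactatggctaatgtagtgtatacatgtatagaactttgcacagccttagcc
Tnfrsf12a: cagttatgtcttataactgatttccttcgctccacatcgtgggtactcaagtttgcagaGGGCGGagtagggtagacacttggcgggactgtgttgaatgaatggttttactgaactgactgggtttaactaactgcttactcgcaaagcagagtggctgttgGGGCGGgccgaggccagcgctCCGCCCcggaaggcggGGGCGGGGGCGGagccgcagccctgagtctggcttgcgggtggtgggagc
Bok: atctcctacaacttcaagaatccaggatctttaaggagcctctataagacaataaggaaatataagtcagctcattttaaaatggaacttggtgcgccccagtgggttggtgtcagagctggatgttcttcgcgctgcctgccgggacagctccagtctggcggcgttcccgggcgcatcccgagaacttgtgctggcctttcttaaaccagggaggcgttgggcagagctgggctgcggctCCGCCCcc
Tnfsf11: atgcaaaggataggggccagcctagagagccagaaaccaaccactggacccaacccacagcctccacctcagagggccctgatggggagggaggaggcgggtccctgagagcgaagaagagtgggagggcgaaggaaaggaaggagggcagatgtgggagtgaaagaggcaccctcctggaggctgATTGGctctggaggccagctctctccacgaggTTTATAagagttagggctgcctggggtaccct
They lie at chr19:34290409-34290658 on the plus strand (Fas), chr1:58802252-58802501 on the plus strand (Casp8), chr17:23677450-23677699 on the minus strand (Tnfrsf12a), chr1:93685325-93685574 on the plus strand (Bok) and chr14:78308044-78308293 on the minus strand (Tnfsf11).

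The windows differ in composition. The Tnfrsf12a window holds 5 GC boxes, 4 of them within the last 87 bases before the start, and 15 CpG dinucleotides. Fas has 1 GC box whose first base lies 47 bases before the start and 11 CpG. Casp8 has 5 CpG and no GC or TATA box, and its CCAAT box lies 202 bases before the start. Bok has a GC box 8 bases before the start and 12 CpG, and Tnfsf11 has a TATA box at 32 bases, a CCAAT box at 64 bases and 4 CpG.

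Over the 64 of 78 members matched in the RefSeq table, with 81 windows, a GC box was present in 50.6%, beside 32.7% of all 32851 windows. It was present in 56.7% of windows of members that were higher and 47.8% of those that were lower. For members that did not pass the share was 62.5% of 8 windows, and for members not tested 40.0%. The CCAAT box was in 22.2% of member windows and 33.8% of all, the TATA box in 9.88% and 12.4%, an NF-kB site in 8.64% and 7.25%, and a p53 decamer in 4.94% and 7.13%. The median number of CpG per window was 11 for members that were higher, 10 for those that were lower, 5 for those not tested and 6 over all windows. The medians of higher and lower members thus lay closer to each other than to that of members not tested, which is a description with no test.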

How the data were processed

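RNA of 4 butyrate and 4 LIF cultures was hybridised in pairs to 4 arrays on 1 slide. Scans were read with Agilent Feature Extraction 9.1, per the submitters' processing notes. As deposited, each spot has an intensity in each channel, with a mean signal and a median background, and, per the file headers, a processed signal and a log10 ratio of Cy5 over Cy3 that are background-subtracted and dye-normalized. The authors' value table is on a log2 scale: against the log2 processed signal of the same sample its columns correlated at 0.99956 or above, and every column median was 6.487. The tool for this was not given in the sources used here.

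With limma 3.58.1 in R 4.3.3 the background was corrected (normexp, offset 50), arrays were normalized by loess with control spots at weight 0, 14 outlier spots were dropped as missing, and repeat spots were averaged per probe. Probes well above background on at least 3 of 4 arrays in either channel were tested (25662 of 41174), and the brightest tested probe stood for its gene. Levels per sample are channel values after loess and Aquantile. Bounds for genes at background in 1 group compare channel means and are open to dye bias. The test was lmFit and eBayes of the 4 ratios (butyrate over LIF) against 0, adjusted by Benjamini-Hochberg over 17190 genes and checked on simulated data. Errors are SDs over 4 arrays, whose number limits the precision.

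The ratio takes the array out as a block. As a check of the pairing, samples with the same number deviated from their group means with a correlation across genes of 0.16 to 0.31, and samples of other numbers with −0.21 to 0.10; same-numbered samples share an array, so this does not show that cultures were paired. The arrays shared 1 slide and 1 day of scanning, which leaves no batch to test.

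Every member may be named. Values per sample were given for Fas, Bcl2, Bcl2l1, Mcl1, Bax, Bak1, Casp8, Casp9, Xiap and Cflar, for up to 3 called members with the largest ratio in each role, and for others where they help; of the pathway list the 3 largest increases and decreases were named. Some results on single genes are not reported here, while counts over the members include every tested gene. The members and lists were chosen with earlier results of these data known. Alternatives were other background corrections, scalings, filters, probe rules, variance models, treatments of the replicate block, and leaving out each replicate. Sequences are from RefSeq (GRCm38.p6); matplotlib 3.10.9 drew the plots.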

Additional observations from a re-analysis of the deposited data

Results flagged for a closer look

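In each of the 56 tested genes the array farthest from the others was compared with Dixon's criterion for 4 values, which chance alone meets in about 1 group of 20. For 2 genes an array stood apart. Tnfrsf21 had a ratio of 0.33 on array 4, above its other arrays, and Tnfrsf4 had a ratio of 0.36 on array 2, below its other arrays. Both genes were higher in butyrate on all 4 arrays, and the cause was not tested.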

How the results depend on the processing

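The ratio of 1 dye pair per replicate limits every value, since no dye swap separates dye from treatment, and dim probes (Casp12, Tnfrsf11b and Tnfsf13b were well above background on no LIF array) have ratios that depend on the background correction. The number of called members was 43 to 48 when 1 replicate was left out, 25 to 27 higher and 17 to 21 lower; for the pathway list it was 44 to 46, 28 to 29 higher and 16 to 18 lower, and for all genes 11569 to 12803. Without the replicate block 46 members passed, 27 higher and 19 lower, and Tnfrsf18 was the member lost (limma adjusted p = 0.0941); the unpaired fit changed no other call among the members. Counting every tested probe singly, which adds probes, gave 71 calls among members, 33 of them lower, and 29 lower in the pathway list. Centring on the median without loess left 2 members and 3 pathway genes lower. It turned the sign of Bid (0.45), Casp9 (0.49), Fadd (0.46), Eda2r (0.40), Birc2 (0.41), Birc3 (0.35) and Bcl2l13 (0.50), which passed as higher. Bik (0.045), Tnfsf13 (0.091), Diablo (0.36), Tnfrsf11b (−0.047), Psmg2 (0.17), Bcl2l12 (0.26), Bcl2l14 (0.041), Bax (0.21) and Bok (0.048) turned but did not pass there. Birc6 (0.30) and Tnfsf13b (−0.099) also turned, and passed neither with loess nor with centring. The 7 members Bmf, Bbc3, Tnfrsf25, Casp12, Birc7, Tnfrsf13c and Tnfrsf18 kept their sign but no longer passed. Tnfrsf1b (0.54) and Tnfrsf13b (0.27) passed as higher under the centring alone of these 2 scalings. The scanner software's ratio turned Tnfrsf1b (−0.11). The mean of tested probes turned Diablo (0.036), Tnfrsf1b (−0.087) and Bak1 (−0.0099). Set against the median of their own chromosome, Tnfsf13b (−0.23) and Tnfrsf13b (−0.11) turned. Apart from the built-in shift of the centring, the causes were not tested.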

Other observations

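Beyond the members, genes that connect TNF receptors to NF-kB and to necroptosis moved in both directions under the loess scaling. Ripk3, the kinase that acts on Mlkl, had a log2 ratio of 0.90 ± 0.09 (SD, n = 4) and the adaptor Tradd, on chromosome 8 (median of its genes 0.29), 0.75 ± 0.04, while Ripk1, the partner of Ripk3, was at −0.11 ± 0.06. Nfkb2 was at 0.89 ± 0.04 and Rela at 0.66 ± 0.08, both on chromosome 19 (median 0.18), whereas Nfkb1 was at −0.25 ± 0.11 and Relb at −0.42 ± 0.05. After centring without loess only Bnip3, Pycard and Cradd of the pathway list passed as lower, so Ripk1, Nfkb1 and Relb did not. Traf3, which restrains the Nfkb2 route, was at 0.83 ± 0.09. Map3k14, the kinase of that route, on chromosome 11 (median 0.21), was at 0.61 ± 0.08. Ltbr, the lymphotoxin receptor, was at 0.70 ± 0.06. Under the loess scaling all of the genes named here passed limma's test, at which 75% of all genes passed. These genes were picked from the pathway list after their values were seen, and what their changes have in common was not tested.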
